A study of Anguilla anguilla with 6 samples.

Results

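Transcripts of the Wnt pathway's ligands, receptors and modulators were followed in ovaries of farmed European eels (Anguilla anguilla). The models were chosen by their protein description, as those that held the words protein wnt, frizzled, r-spondin, dickkopf, wnt inhibitory factor, dishevelled or axin- in the authors' deposited table. The words were found in 176 of 45974 gene models. The letters axin- also occur inside other protein names, and 95 of the 176 matched only in that way. These were 51 syntaxin, 19 ataxin, 10 pentraxin, 9 relaxin, 4 metaxin, 1 chemotaxin and 1 draxin model, which are vesicle, neuronal, immune, hormone or mitochondrial proteins in the main. The other 81 carried a description of the Wnt pathway itself and are the members described here: 28 models of Wnt ligands, 1 of the Wnt carrier WLS, 22 of Frizzled receptors, 10 of Frizzled-related proteins, 5 of Dickkopf proteins, 3 of R-spondins, 1 of Wnt inhibitory factor 1, 7 of Dishevelled and 4 of Axin.

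The study compared responders, 4 eels that responded to 4 weekly injections of gonadotropins, with non-responders, 2 eels that did not. All 6 came from a commercial farm and had received the hormone, so both groups are hormone-treated animals and an untreated group was not analysed here. Each library held the pooled anterior, middle and posterior gonad of 1 eel. The labels do not say how a response was defined, and they give no age, strain or batch.

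Wnt ligands are secreted glycoproteins that carry a lipid and reach the cell surface with the help of the membrane protein Wntless. They bind Frizzled receptors and their LRP co-receptors, and Dishevelled then recruits Axin away from the complex that marks beta-catenin for destruction. Secreted Frizzled-related proteins and Wnt inhibitory factor bind ligands outside the cell, Dickkopf proteins such as DKK1 block the LRP co-receptors, and R-spondins keep Frizzled receptors on the surface. In mammals WNT4 and RSPO1 are needed for normal development of the ovary.

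Expression was read from the authors' deposited table, which gives for each model the mean of responders and the mean of non-responders in scaled counts (counts divided by a size factor per library), the ratio of both means, a p and an adjusted p. The table calls its conditions A and B, and they were taken as non-responders and responders because the overall mean weights A as 2 and B as 4 of the 6 libraries, the labelled group sizes. Every direction below rests on that reading. Only these group means were used, without values per library, so no SD, no depth per library and no count of animals above or below a level stand beside them. The means of responders summed to 11695525 scaled counts and those of non-responders to 12635190. Every log2 ratio would be 0.11 larger if the sums were made equal. Markers of the oocyte were abundant and those of other ovarian cells present: the 20 models of 8 oocyte genes summed to 451571 scaled counts in responders and 674376 in non-responders. All 20 had a mean of at least 20, and 19 lay lower in responders, against 50.2% of all models at that level. Zona pellucida models (ZP2, ZP3 and ZP4) made up most of the 20 and most of the sums. ZP2 (g45297) alone had 171541 scaled counts in responders and 254959 in non-responders. Outside that family, log2 ratios ran from -0.95 for ZAR1 (g14809) to 0.03 for GDF9 (g5262). Of the 10 models of the theca and stroma list with a mean of at least 5, 9 lay higher and 1 lower in responders, while 49.4% of all models at that level lay lower. The germ cell and oocyte genes BMP15 and DAZL and the granulosa factor FOXL2 were all detected. The other lists had sums of 247 scaled counts in responders and 205 in non-responders for granulosa cells, 127 in responders and 206 in non-responders for endothelium, and 546 in responders and 540 in non-responders for smooth muscle. Single models carried much of these sums, FOXL2 (g429) with 191 in responders and 143 in non-responders and CADH5 (g17569) with 37.4 in responders and 95.4 in non-responders. With a mean of at least 5, 3 granulosa models lay higher and 2 lower in responders, and 2 endothelial models higher and 4 lower. Of the smooth muscle models at that level, 5 lay higher and 1, CNN1 (g14833), lower, so the near-equal sums hide mixed directions. Leukocyte markers summed to 92.6 in responders and 69.0 in non-responders and erythrocyte markers to 23.2 in responders and 39.0 in non-responders, and no marker model of any list passed the adjusted threshold. In whole pieces of ovary, fewer cells of a type and less RNA per cell cannot be told apart.

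No member differed between responders and non-responders at an adjusted p under 0.05, by the DESeq test in the authors' deposited table. A p was given for 66 of the 81, and 0 of the 66 passed, against 0.183% of all models with a p. The remaining 15 were listed at 0 in both groups. An unadjusted p under 0.05 was given to 3 of the 66 (4.55%), against 3.67% of all 37072 models with a p. The 3 were DKK1, FZD8 and AXIN1. All 3 were among the 25 members with 20 or more scaled counts on average, a share of 12% against 6.32% of all models at that level. Such a share rests on 3 models, and no test was made of it. Of the 95 models matched through other words 0 passed and 2 had an unadjusted p under 0.05, syntaxin-6 and syntaxin-binding protein 6.

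Members ranged from absent to abundant. Of the 81, 25 reached 20 scaled counts as a mean of the 6 libraries (30.9%, against 36.9% of all models), 41 lay above 0 and under 20, and 15 were listed at 0 (18.5%, against 19.4% of all models). Levels of different genes were compared per kilobase of the longest transcript, over the 32 members with a transcript of at least 500 bases and a mean of at least 5, and ordered by their mean over the 6 libraries, in which the 4 responders weigh more than the 2 non-responders. The highest was SFRP4, a secreted Frizzled-related protein, at 1641 scaled counts per kilobase in responders and 1666 in non-responders, above 96.0% of all models measured the same way. WLS came second, at 557 scaled counts per kilobase in responders and 756 in non-responders. It was followed by DKK3, at 433 in responders and 915 in non-responders, and by DKK1, at 396 in responders and 76.7 in non-responders, all per kilobase. FZD2 followed as the most abundant Frizzled receptor, with 220 scaled counts per kilobase in responders and 295 in non-responders. WNT5A, the most abundant ligand, stood at place 11 of 32, with 105 scaled counts per kilobase in responders and 94.5 in non-responders. SFRP4, WLS, DKK3 and DKK1 thus headed the order over the 6 libraries, with SFRP1, another Frizzled-related protein, behind FZD2 and FZD1 at place 7. The order differed by group: in responders WLS lay above DKK3, and in non-responders DKK3 lay above WLS and DKK1 lay below several receptors and the ligands WNT5A and WNT8A. Without values per library, neighbours in this order cannot be set against a spread.

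**Figure D1:**
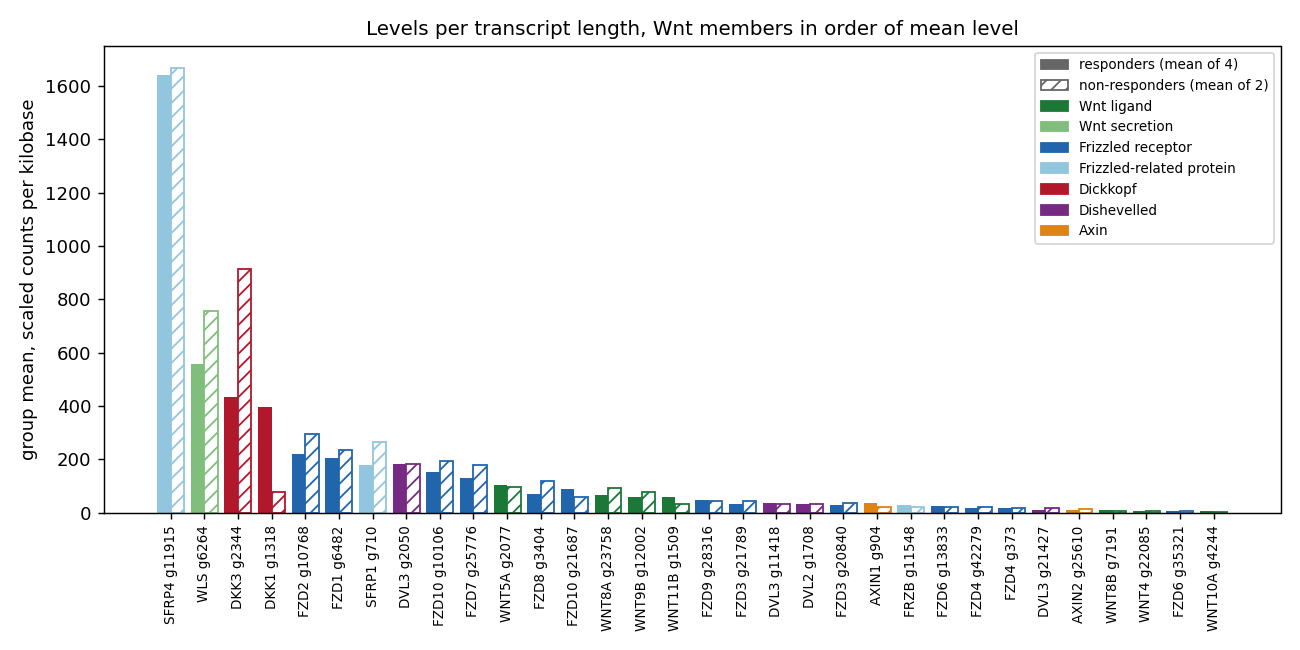
Group means per transcript length, in scaled counts per kilobase, for the 32 Wnt members with a transcript of at least 500 bases and a mean of at least 5, in order of their mean over all libraries; filled bars are the mean of 4 responders, hatched bars the mean of 2 non-responders, and colours give the role. SFRP4 stands highest in both groups, and DKK1 is the member of the first 4 whose responder bar is the taller one.

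Among the ligands, 4 of 28 models reached a mean of 20 scaled counts. WNT5A (g2077), a ligand best known for signalling that does not run through beta-catenin, averaged 300 scaled counts in responders and 269 in non-responders, per the authors' deposited table (log2 0.15, p = 0.729). It alone held 47.9% of the summed ligand counts in responders and 46.7% in non-responders. WNT11B (g1509), named after a Xenopus maternal Wnt, averaged 115 in responders and 67.0 in non-responders, per the authors' deposited table (log2 0.78, p = 0.375). The other pair lay lower in responders. WNT9B (g12002), which directs kidney tubule formation in mice, averaged 87.1 in responders and 112 in non-responders, per the authors' deposited table (log2 -0.36, p = 0.473). WNT8A (g23758), a ligand that acts through beta-catenin in the early fish embryo, averaged 61.8 in responders and 88.8 in non-responders, per the authors' deposited table (log2 -0.52, p = 0.200). None of these differences passed, each with an adjusted p of 1 in the table the authors deposited.

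The remaining 24 ligand models were low or silent. Of these, 17 lay above 0 and under a mean of 20, and 7 were listed at 0. The highest of the 17 was WNT10A (g4244), at 22.1 scaled counts in responders and 3.37 in non-responders, per the authors' deposited table, which was the largest ratio of any member with a mean of at least 5 without passing (log2 2.71, p = 0.326). WNT10A reached that mean only through responders, the group where it is high, so the filter itself favoured a large ratio here. WNT4, whose mouse gene is required in the developing ovary, had 4 models, led by g22085 at 13.6 scaled counts in responders and 15.3 in non-responders, per the authors' deposited table (log2 -0.17, p = 0.744). WNT8B (g7191) averaged 13.7 scaled counts in responders and 9.40 in non-responders, per the authors' deposited table (log2 0.54, p = 0.558). The other 14 models above 0 had means under 5. Every model of WNT3A, WNT5B, WNT9A and WNT10B was listed at 0 in both groups, 4 of the 19 ligand names in the table. Over the 7 ligand models with a mean of at least 5, 4 lay higher and 3 lower in responders (42.9% lower, against 49.4% of all models). Their median log2 was 0.15, against 0.01 over all models at that level. Over the 4 with a mean of at least 20, 2 lay higher and 2 lower, at a median of -0.10, so the sign depended on the level chosen.

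Ligand models with consecutive identifiers formed 4 pairs, WNT3A with WNT9A, WNT6 with WNT10A, WNT10B with WNT1 and WNT8C with WNT8A. In the RefSeq annotation of the eel assembly fAngAng1.pri, WNT3A and WNT9A are adjacent genes, as are WNT10B and WNT1. The symbols of the other pairs were not matched there. Both models of the WNT3A pair and WNT10B were listed at 0, and WNT1 had 0.22 scaled counts in responders and 0 in non-responders, per the authors' deposited table. In the WNT8 pair 1 model was detected well and the other hardly: WNT8A had 61.8 scaled counts in responders and 88.8 in non-responders, and WNT8C (g23757) had 2.11 in responders and 1.41 in non-responders, per the authors' deposited table.

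WLS (g6264), the Wntless protein that carries lipid-bearing Wnts to the cell surface, was abundant in both groups. It averaged 1622 scaled counts in responders and 2201 in non-responders, per the authors' deposited table, a log2 of -0.44 that did not pass (p = 0.182). PORCN (g20001), the acyltransferase that attaches the lipid, averaged 613 in responders and 588 in non-responders, per the authors' deposited table (log2 0.06, p = 0.877).

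Frizzled receptors were the best represented class, with 11 of 22 models at a mean of at least 20. FZD1 (g6482) averaged 818 scaled counts in responders and 942 in non-responders (log2 -0.20, p = 0.486), and FZD2 (g10768) averaged 723 in responders and 971 in non-responders (log2 -0.43, p = 0.226), per the authors' deposited table. A long model matched to frog FZD10 (g10106) averaged 566 scaled counts in responders and 707 in non-responders, per the authors' deposited table (log2 -0.32, p = 0.296). FZD7 (g25776) averaged 480 in responders and 649 in non-responders, per the authors' deposited table (log2 -0.44, p = 0.196). These 4 receptors held most Frizzled counts, and each had a lower mean in responders without passing.

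FZD8 (g3404) had the lowest p of the receptors. It averaged 191 scaled counts in responders and 319 in non-responders, per the authors' deposited table (log2 -0.74, p = 0.0215, adjusted p = 1). Among the 16971 models with a mean of at least 20, 4.37% had a ratio as low or lower and 3.74% a p as small or smaller. The value therefore lies in the outer part of the distribution of all models but not at its end.

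Less abundant receptors had ratios on both sides of 1. A second FZD10 model (g21687), matched to the human protein, averaged 119 scaled counts in responders and 77.5 in non-responders, per the authors' deposited table (log2 0.62, p = 0.120), opposite in sign to the long FZD10 model. FZD6 (g13833) averaged 98.6 in responders and 86.1 in non-responders (log2 0.20, p = 0.701), and FZD9 (g28316) averaged 52.7 in responders and 46.5 in non-responders (log2 0.18, p = 0.757), per the authors' deposited table. FZD4 (g373), known in mammals as a receptor for norrin in retinal vessels, averaged 36.4 in both groups in the authors' deposited table (log2 -0.00098, p = 0.929). FZD3, a receptor of axon guidance and planar polarity in mice, had 5 models, of which g20840 averaged 118 in responders and 156 in non-responders (log2 -0.40, p = 0.231) and g21789 averaged 21.5 in responders and 26.9 in non-responders (log2 -0.32, p = 0.535), per the authors' deposited table. The highest of the 8 receptor models above 0 and under 20 was a further FZD4 model (g42279), at 19.1 in responders and 20.8 in non-responders, per the authors' deposited table.

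Counted together, 8 of the 11 Frizzled models with a mean of at least 20 lay lower in responders (72.7%, against 50.2% of all models at that level), at a median log2 of -0.32, against -0.0016 for all models. The 8 include FZD4 (g373), which was practically level at a log2 of -0.00098. With both groups rescaled to equal sums, 7 of the 11 lay lower and the median was -0.21, against 0.11 for all models. At a mean of at least 5, 9 of 14 lay lower, at a median of -0.16. With equal sums at that level, 8 of 14 lay lower and the median was -0.05, against 0.12 for all models. These are counts of models and no test of the class. The oocyte markers also had lower means in responders, with a median log2 of -0.37 over their 20 models, most of them zona pellucida models. Their part in the Frizzled values was not tested.

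**Figure D2:**
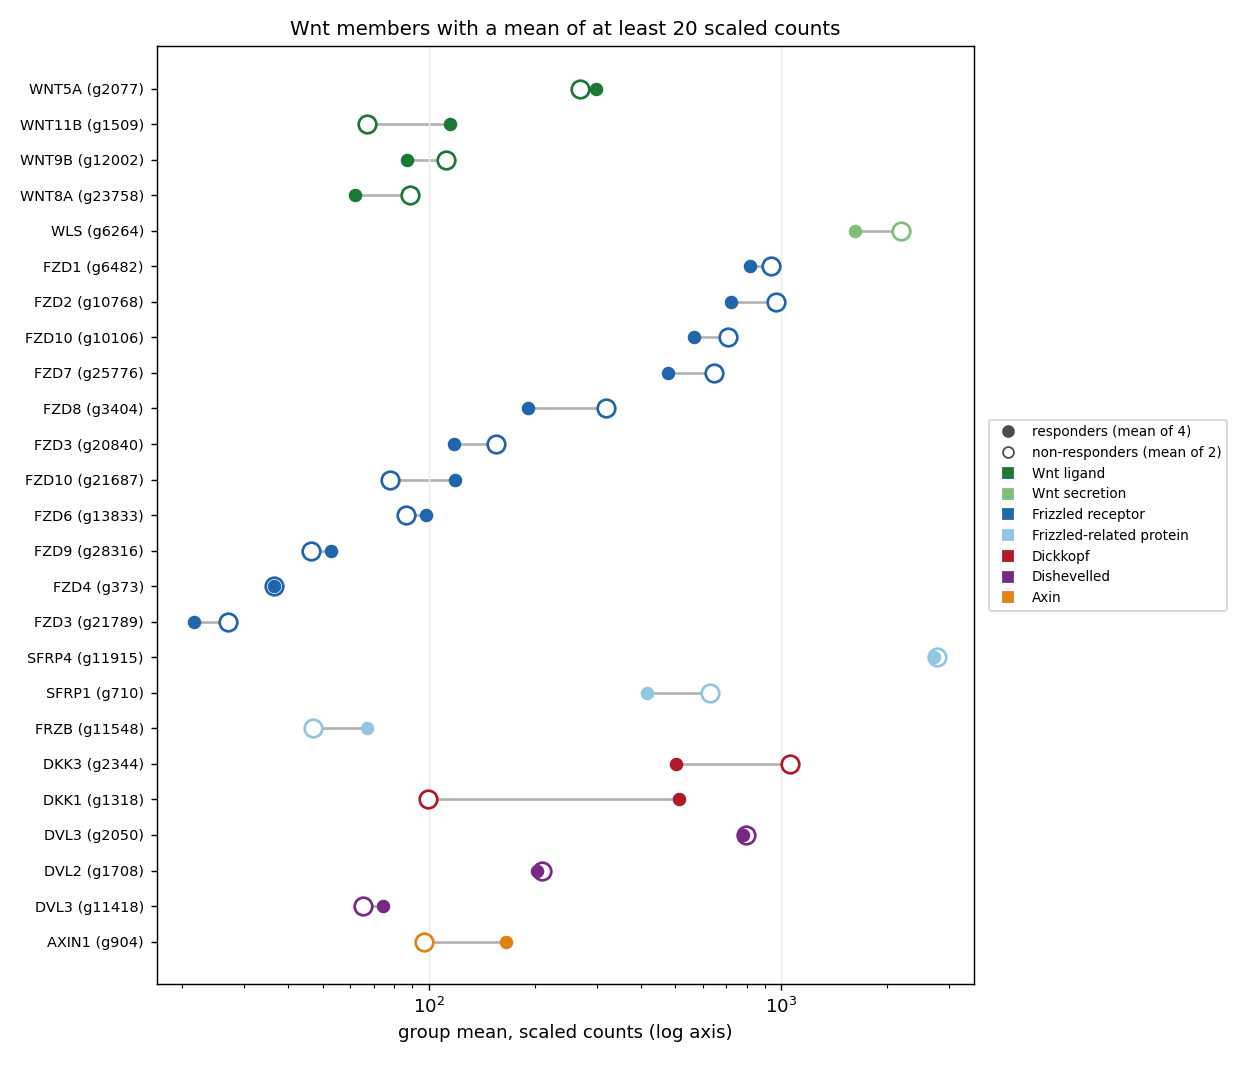
Group means in scaled counts, on a log axis, of the 25 Wnt members with a mean of at least 20, ordered by role and level; filled circles are the mean of 4 responders and larger open circles the mean of 2 non-responders. The longest line joins the means of DKK1, at 515 in responders and 99.9 in non-responders. The non-responder mean is the larger one for 8 of 11 Frizzled models, but for FZD4 (g373) both means are 36.4 and the circles coincide.

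Frizzled-related proteins, which resemble the ligand-binding part of the receptors and act mostly as decoys, had 10 models, 3 of them with a mean of at least 20. SFRP4 (g11915) was nearly level, at 2728 scaled counts in responders and 2771 in non-responders, per the authors' deposited table (log2 -0.02, p = 0.947), and held 84.9% of the counts of this class in responders and 80.3% in non-responders. SFRP1 (g710) averaged 419 in responders and 629 in non-responders, per the authors' deposited table (log2 -0.59, p = 0.0935). FRZB (g11548), also called SFRP3, averaged 66.8 in responders and 47.1 in non-responders, per the authors' deposited table (log2 0.50, p = 0.254). The other 7 models, among them SFRP2, SFRP5 and the membrane protein MFRP, lay at or near 0, the highest being a second SFRP4 model (g9736) at 0.21 in responders and 2.11 in non-responders, per the authors' deposited table.

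Dickkopf transcripts held the largest differences of the abundant members, in opposite directions. DKK1 (g1318), a secreted antagonist that binds the LRP co-receptors, averaged 515 scaled counts in responders and 99.9 in non-responders, per the authors' deposited table. The ratio was 5.16 (log2 2.37), with an unadjusted p = 0.0122 and an adjusted p = 0.837 in the authors' deposited table. Of the 16971 models with a mean of at least 20, 143 (0.843%) had a ratio as high or higher, while 463 (2.73%) had a p as small or smaller. The test rests on 4 responders and 2 non-responders, and how the high level is spread over the 4 responders was not analysed here.

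DKK3 (g2344), a divergent Dickkopf whose action on Wnt signalling differs between settings, averaged 503 scaled counts in responders and 1062 in non-responders, per the authors' deposited table (log2 -1.08, p = 0.0755, adjusted p = 1). The make-up of the class differed accordingly: DKK1 held 50.5% of the summed Dickkopf means in responders and 8.59% in non-responders, and DKK3 model g2344 held 49.3% in responders and 91.3% in non-responders. Neither difference passed the adjusted threshold, and no test was made of the shares. The second DKK1 model (g14177) was listed at 0 in both groups. A second DKK3 model (g13503) had 2.001 scaled counts in responders and 0.47 in non-responders, and DKK4 (g19551) had 0 in responders and 1.02 in non-responders, per the authors' deposited table. DKK1 and the theca and stroma markers both had higher means in responders, the markers summing to 3859 scaled counts over 12 models in responders and 2289 in non-responders, and their part in the DKK1 value was not tested.

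**Figure D3:**
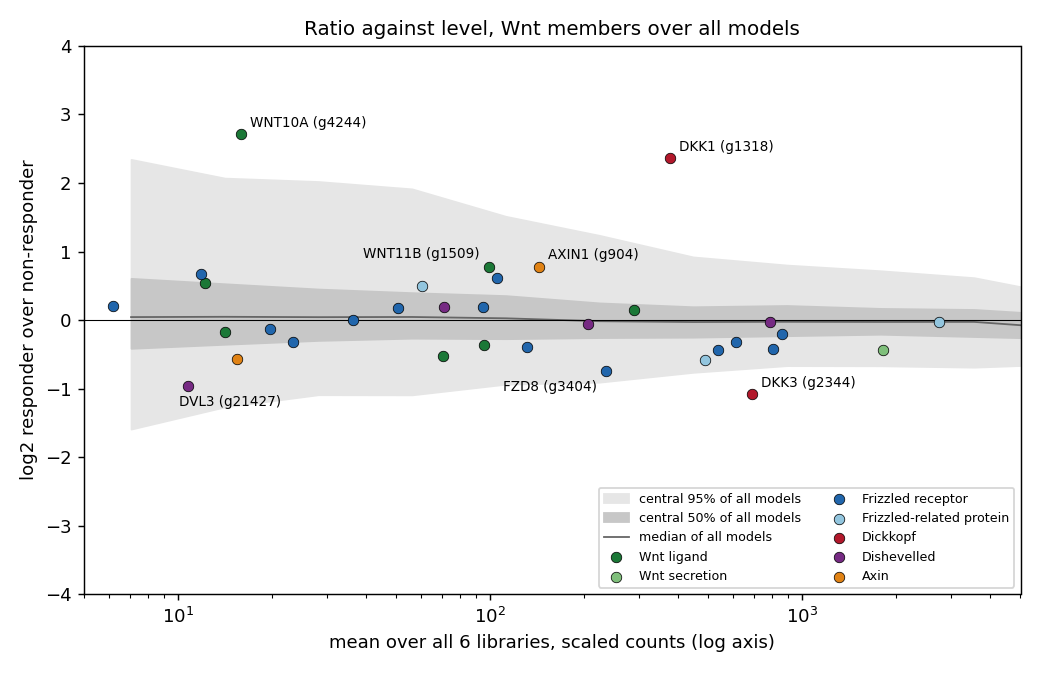
Log2 of the responder over the non-responder mean against the mean over all 6 libraries (scaled counts, log axis) for the 33 Wnt members with a mean of at least 5; grey bands hold the central 50% and 95% of all models at each level and the line is their median. DKK1 (log2 2.37) lies above and DKK3 (log2 -1.08) below the outer band at their level, the low WNT10A (log2 2.71) lies above it, and the other members with a mean of at least 20 lie within it. WNT10A reaches a mean of 5 only through responders.

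The models of R-spondins and Wnt inhibitory factor were close to silent. R-spondin models carried only the names RSPO1 and RSPO2, and the RSPO1 model was 327 bases long. The family may therefore be incompletely covered. The 3 R-spondin models included RSPO1 (g21030), the mammalian ovary factor, at 0.27 scaled counts in responders and 0 in non-responders, and RSPO2 (g1972), at 0.21 in responders and 0.47 in non-responders, per the authors' deposited table. WIF1 (g20313) had 2.12 in responders and 1.41 in non-responders, per the authors' deposited table. LGR4 (g4903), a receptor for R-spondins, was by contrast present at 85.4 in responders and 61.4 in non-responders, per the authors' deposited table (log2 0.48, p = 0.273).

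Dishevelled, the adaptor that relays the signal from Frizzled receptors, was nearly level between the groups. DVL3 (g2050) held 72.8% of the class in responders and 72.2% in non-responders and averaged 783 scaled counts in responders and 796 in non-responders, per the authors' deposited table (log2 -0.02, p = 0.933). DVL2 (g1708) averaged 203 in responders and 210 in non-responders (log2 -0.05, p = 0.928), and a further DVL3 model (g11418) averaged 74.3 in responders and 65.03 in non-responders (log2 0.19, p = 0.662), per the authors' deposited table. The other 4 models had means under 20, led by a DVL3 model (g21427) at 8.15 in responders and 15.9 in non-responders, per the authors' deposited table.

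AXIN1 (g904), the scaffold of the beta-catenin destruction complex, averaged 166 scaled counts in responders and 96.7 in non-responders, per the authors' deposited table (log2 0.78, p = 0.0449, adjusted p = 1). A ratio as high or higher was found in 7.95% of the models with a mean of at least 20. AXIN2, a scaffold of the same kind and a common readout of Wnt activity because its gene is itself a target, had the opposite sign at a low level. Its main model (g25610) averaged 13.3 scaled counts in responders and 19.6 in non-responders, per the authors' deposited table (log2 -0.56, p = 0.410), and another (g21546) averaged 1.89 in responders and 5.16 in non-responders, per the authors' deposited table.

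Many names were carried by more than 1 model, as separate genes or as pieces of a transcript, which the table cannot tell apart. Of the 20 such names with any signal, 10 had a single model that held at least 90% of the name's counts in both groups. SFRP4 was among them, with 99.99% in responders and 99.92% in non-responders on model g11915. FZD4 was divided most evenly among the names with a mean above 20, with 65.6% in responders and 63.7% in non-responders on g373. Similarity to the best protein match ranged from 0.41 to 0.93 over the members, with a median of 0.73, against 0.70 over all models with a match, and was lowest for DKK4. All 28 ligand models carried an extracellular annotation, and 21 of the 22 Frizzled models were annotated with Wnt receptor activity.

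The rest of the pathway was taken from a list of 30 families, of which 29 were matched, by 197 models. None of the 162 with a p passed at an adjusted p under 0.05, by the authors' deposited table, against 0.183% of all models, and 4 of the 162 (2.47%) had an unadjusted p under 0.05, against 3.67% of all models. Of the 85 with a mean of at least 5, 34 lay higher and 51 lower in responders (60% lower, against 49.4% of all models at that level), at a median log2 of -0.12. With equal sums that median would be -0.01, against 0.12 for all models.

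At the cell surface, a model matched to LRP6 (g15366), the co-receptor that DKK1 blocks, averaged 794 scaled counts in responders and 863 in non-responders, per the authors' deposited table (log2 -0.12, p = 0.684). Its similarity to the best protein match was 0.48, the lowest of the 23 LRP5 and LRP6 models, whose median was 0.75. The others had means of at most 2.91, so the level of LRP6 rests on that weak match. RYK (g17774) averaged 336 in responders and 424 in non-responders (log2 -0.33, p = 0.479) and ROR2 (g18082), a receptor for WNT5A in mammals, averaged 136 in responders and 145 in non-responders (log2 -0.09, p = 0.734), per the authors' deposited table. Sclerostin (SOST, g9117), a secreted antagonist that binds the same co-receptors, had the smallest p of the whole list, at 0.77 scaled counts in responders and 12.6 in non-responders (log2 -4.03, p = 2.9e-04, adjusted p = 0.108) per the authors' deposited table. Its level was low, the adjusted p missed the threshold, and a second model of that name (g7325) had the opposite sign, at 3.80 in responders and 0.47 in non-responders (p = 0.184) per the authors' deposited table. GPC4 (g15129), a surface glypican, averaged 674 in responders and 787 in non-responders (log2 -0.22, p = 0.504) per the authors' deposited table. Summed over their models, the receptor ligase ZNRF3 had 10.5 scaled counts in responders and 6.73 in non-responders, NOTUM, which removes the lipid from Wnts, had 11.7 in responders and 9.32 in non-responders, and the DKK1 co-receptor KREM1 had 0.22 in responders and 0.94 in non-responders, per the authors' deposited table.

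Inside the cell, beta-catenin (CTNNB1) had 5 models, all with a lower mean in responders. A mean of at least 5 was reached by 4 of them, and 49.4% of all models at that level lay lower. The median log2 of the 4 was -0.40, or -0.29 with equal sums, against 0.01 and 0.12 for all models. The 5 models were 123 to 2811 bases long, so several may be pieces of 1 transcript. The longest (g3222) averaged 168 scaled counts in responders and 282 in non-responders (log2 -0.75, p = 0.0400, adjusted p = 1), and the most abundant (g27776) averaged 195 in responders and 238 in non-responders (log2 -0.29, p = 0.376), per the authors' deposited table. Among the families listed with the destruction complex, casein kinase I was matched over its alpha, delta, epsilon and gamma isoforms, which were not separated by their role. Its 20 models had a median length of 247.5 bases, so several may be pieces of 1 transcript. Of the 18 that reached a mean of 5, 15 lay lower in responders (83.3%, against 49.4% of all models at that level). Their median log2 was -0.27, or -0.16 with equal sums, against 0.01 and 0.12 for all models. The other families did not share that count: 1 of 2 APC models, 1 of 2 GSK3 models and 1 of 3 tankyrase models lay lower in responders. The most abundant model of these families, APC (g9603), averaged 2157 in responders and 1997 in non-responders, per the authors' deposited table (log2 0.11, p = 0.776). The casein kinase I model KC1DB (g8545) averaged 1542 in responders and 2021 in non-responders (log2 -0.39, p = 0.223), and GSK3B (g15557) averaged 101 in responders and 108 in non-responders (log2 -0.10, p = 0.756), per the authors' deposited table. Tankyrase (TNKS1, g14357) averaged 50.5 in responders and 52.2 in non-responders, and the beta-catenin inhibitor Chibby (CBY1, g10747) averaged 1322 in responders and 1219 in non-responders, per the authors' deposited table. NKD1 (g22469), an inhibitor that binds Dishevelled, averaged 130 in responders and 165 in non-responders, and ICAT (g12425) averaged 4.11 in responders and 3.45 in non-responders, per the authors' deposited table.

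Of the nuclear factors, the TCF7 and LEF1 family had 12 models under 5 names, the shortest of 133 bases. With a mean of at least 5, 8 of 9 lay lower in responders (88.9%, against 49.4% of all models at that level). Their median log2 was -0.24, or -0.13 with equal sums, against 0.01 and 0.12 for all models. None of the 9 had an unadjusted p under 0.05. The most abundant, TCF7L1 (g11330), averaged 354 scaled counts in responders and 418 in non-responders, per the authors' deposited table (log2 -0.24, p = 0.484). A low TCF7L2 model (g15880) averaged 0.97 scaled counts in responders and 8.44 in non-responders (p = 0.0190, adjusted p = 0.994) per the authors' deposited table. BCL9 (g4928), a partner of beta-catenin, averaged 269 in responders and 280 in non-responders, and the corepressor TLE1 (g19936) averaged 221 in responders and 322 in non-responders (log2 -0.55, p = 0.0926), per the authors' deposited table. The corepressor CTBP2 (g2895) averaged 226 in responders and 126 in non-responders, per the authors' deposited table (log2 0.85, p = 0.0245, adjusted p = 1). Over all nuclear factor models with a mean of at least 5, 15 of 22 lay lower in responders (68.2%). Their median log2 was -0.18, or -0.07 with equal sums. The families differed: 4 of 5 BCL9 and 3 of 5 TLE models lay lower, and all 3 CTBP models lay higher. All 5 models of the listed target genes MYC, CCND1 and SP5 with a mean of at least 5 lay higher in responders, and none passed. Of all models at that level, 49.4% lay lower. A CCND1 model among the 5 (g20192) had a mean under 5 in non-responders and met that level only through responders. At a mean of at least 20, 3 target models remained, 2 of MYC and 1 of SP5, and all 3 lay higher. MYC (g3954) averaged 1514 in responders and 1139 in non-responders (log2 0.41, p = 0.253), CCND1 (g3268), cyclin D1, averaged 17.1 in responders and 11.4 in non-responders (log2 0.59, p = 0.431), and SP5 (g4163) averaged 100.5 in responders and 81.7 in non-responders (log2 0.30, p = 0.465), per the authors' deposited table. These genes answer to other signals too. AXIN2, a target counted with the members and not on that list, had the opposite sign at a low level. The list of targets is short and is no survey of Wnt targets, and models placed under other roles were not counted as targets. Among those, directions were mixed. The 2 NKD1 models with a mean of at least 5 lay lower in responders, and the 1 NOTUM model at that level (g14768) lay higher. DKK1 (g1318), counted with the members, also lay higher (log2 2.37). Wnt activity was not tested. Of the planar polarity families, CELSR1 (g347) averaged 117 in responders and 144 in non-responders, and DAAM1 (g6571), which links Dishevelled to the cytoskeleton, averaged 181 in responders and 119 in non-responders (log2 0.60, p = 0.106), per the authors' deposited table. PRICKLE2 (g4419) averaged 77.7 in responders and 58.7 in non-responders, and VANGL2 (g41542) averaged 60.0 in responders and 62.8 in non-responders, per the authors' deposited table.

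**Figure D4:**
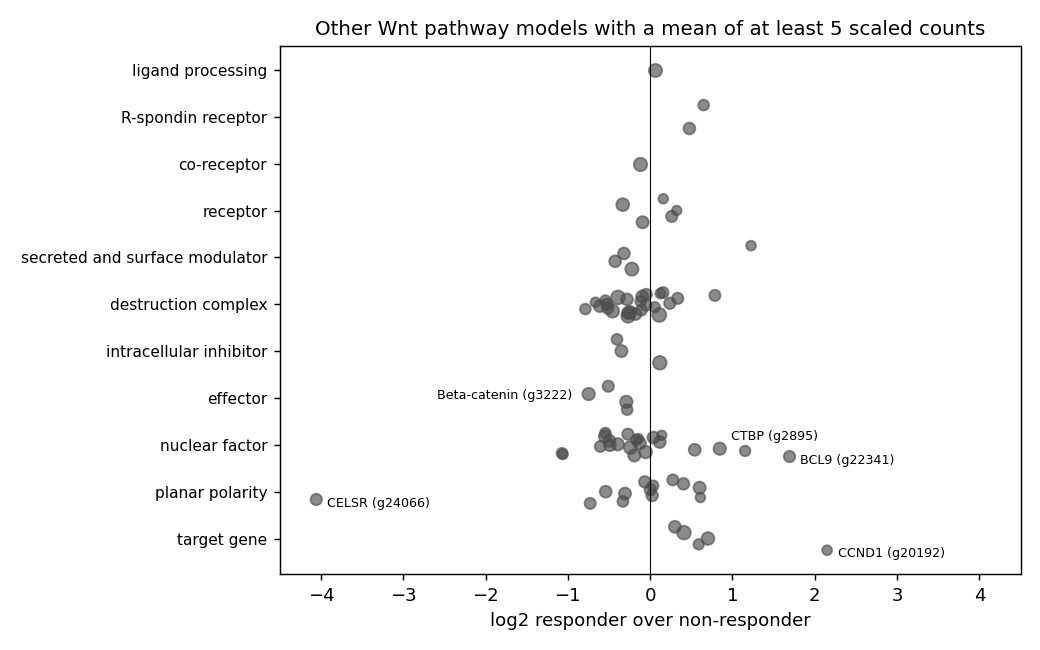
Log2 of the responder over the non-responder mean for the 85 other Wnt pathway models with a mean of at least 5 scaled counts, 1 row per role; each point is a model and larger points have higher means. Models of the effector beta-catenin lie left of 0 and those of the listed target genes MYC, CCND1 and SP5 right of it. Of the target models, 3 have a mean of at least 20. The point farthest to the left is a CELSR1 model (g24066) at log2 -4.06, whose deposited DESeq p was 0.102.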

How the data were processed

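Ovarian mRNA of 6 eels was sequenced from total RNA, 1 library per animal, using Illumina's mRNA preparation kit (source: the labels' protocols). Aligner, counter, genome build and versions: not given in the sources used here. The authors deposited 1 table, made with DESeq per the table's name. Per the file headers its expression signal is a base mean, counts divided by size factors, over all libraries and per condition. The authors deposited the ratio (fold) of the condition means, a p-value and an adjusted p-value. The similarity to the best protein match is a fraction, per the file headers, and 14 rows whose cells are shifted have none. That the overall mean weights the conditions as 2 and 4 of 6 libraries (largest deviation 3.5e-10) identifies them as non-responders and responders. Another 6 columns, 1 per library, have names found in no label and were left unused. Depth per library, SD and a new count test were therefore not worked out here, and tests are those of the authors. Whether those columns could be assigned to the groups by their values was not examined.

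Computed here were a log2 of the deposited fold, levels per kilobase of longest transcript, shares and counts; p-values were those deposited, across all 37072 models with a p. Members with a mean of at least 20 or an unadjusted p under 0.05 were named, with the highest of each remaining role. Of the other pathway genes, those with an unadjusted p under 0.05 and the highest of each family were named. Beyond that rule, values were added after they were seen for several further models (WNT4, WNT8B, WNT8C, WNT1, RSPO1, DKK4, AXIN2 g21546, SOST g7325, CELSR1 g24066, the markers FOXL2 g429, CADH5 g17569, ZP2 g45297, ZAR1 g14809 and GDF9 g5262, and the 2 syntaxin models). Counts by direction were given for some pathway families and not for all, also outside that rule. Members and lists were chosen with earlier results of these data known. Pathway and marker models were matched by description or name, and 0 identifiers matched the RefSeq table. Re-adjustment by Benjamini-Hochberg was tested on simulated data. With 2 non-responders the precision of every comparison is limited. Python 3.11.15, pandas 2.3.3 and matplotlib 3.10.9 were used.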

Additional observations from a re-analysis of the deposited data

How the results depend on the processing

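The count of 0 called members, and of 0 called models of the other pathway list, was the same with Benjamini-Hochberg recomputed over all models with a p and with re-adjustment over the models averaging 20 or more, where DKK1 had an adjusted p of 0.446, FZD8 of 0.575 and AXIN1 of 0.753. Over all models, 68 were called in the authors' deposited table, 68 after recomputation and 90 after re-adjustment over the higher models, 61 of them shared. The median log2 of the members was -0.0502 over 33 models, and -0.0502 also at a mean of at least 20 or with 1 model per name. It was 0.0613 with equal sums, -0.05 with 1 added to both means and -0.0225 over all rows the description words find; the last and the setting of 1 model per name were chosen after seeing the data. With equal sums 4 of the 25 named members changed sign, SFRP4, DVL2, the DVL3 model g2050 and FZD4. No paired analysis was possible because the labels give no shared replicate numbers and values per library were not used; leaving out libraries, edgeR and DESeq2 were not run for the same reason. Low models, such as SOST, are limited by their few counts.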
